A study of Arabidopsis thaliana with 36 samples.

Results

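The proteins of the cytosolic 40S ribosomal subunit are encoded in Arabidopsis thaliana by small families of near-identical genes, and 60 such loci of 25 families were listed here. A locus was used where 1 probe set of the array names that gene alone, and the probe set with the highest mean over the 36 arrays stood for it. This held for 36 of the 60 loci, each with 1 such probe set, out of 13286 genes with a probe set of their own on the whole array. Of the 36, 35 loci of 19 families passed a filter on low values (a log2 value of at least 5 on at least 3 arrays) and 1 did not. Another 11 loci are named only on 5 probe sets shared between paralogs, and 13 were not matched to a named probe set and are not analysed here. Those 13 include every listed locus of the RPSa, RPS6 and RPS15a families.

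Expression was measured in the aerial part of 10 day-old CCA1-ox plants, Columbia plants that overexpress the clock transcription factor CIRCADIAN CLOCK ASSOCIATED 1. The original CCA1-ox line is known to carry the gene under a constitutive viral promoter. Seedlings grew on agar with 1% sucrose in 16 h of light and 8 h of dark, with lights on at 6am, and were harvested at 6am, 12pm, 6pm and 12am. Each extract was divided on a sucrose gradient into large polysomal, small polysomal and non-polysomal RNA, with 3 numbered replicates of each of the 12 combinations of time and fraction. All plants carried the transgene and none received another treatment. The wild-type plants that the design also names were not analysed here, so no value below compares genotypes. Nothing states that replicates came from separate plantings, so p-values measure only the spread between these samples.

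The 40S subunit carries one RNA and a set of proteins, and it binds the messenger RNA, scans for the start codon and decodes it. Messenger RNAs on many ribosomes sediment as large polysomes, those on few as small polysomes, and those not being translated stay in the non-polysomal fraction. Plant messenger RNAs for ribosomal proteins are known to move between these pools with light, sugar and the clock, under the kinase TOR among others. In animals this class of messenger RNA has a pyrimidine-rich start that ties its translation to TOR.

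The values are log2 expression, on which a difference of 1 is a doubling. The difference between large polysomal and non-polysomal RNA is called loading here, and the mean of the 3 fractions is called level. Both are relative to the other transcripts on the same arrays, because the arrays were normalised to one another. A transcript was called where the Benjamini-Hochberg adjusted p of limma over 12635 probe sets was below 0.05. Within a group, arrays correlated at 0.961 to 0.996 and no 2 arrays held identical values. RCA, a Rubisco activase of green tissue, ranged from 11.97 to 14.16 on the 36 arrays. PYK10, a beta-glucosidase best known from roots, ranged from 10.41 to 12.48 in these aerial parts, and FMA, a guard cell factor, from 5.92 to 7.62. The part of roots or of any other tissue in the results below was not tested. The design cannot tell fewer copies of a transcript in a cell from fewer cells that express it.

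The 40S transcripts split between the fractions, and genes of 1 family were called on both sides. Of the 35, 11 were higher and 20 were lower in large polysomal than in non-polysomal RNA, and 4 were not called. One of the 11, RPS9 AT5G39850, passed the filter only through 3 large polysomal arrays of 6am, the group where it is high, so it had to differ, and without it 10 of 34 were higher. Leaving it out lowers any count of members below by at most 1. Over all probe sets the calls were 42.3% higher and 37.8% lower, 80.1% in all, so most transcripts on the array were called in this comparison. The median loading of the 35 was -0.22, against 0.05 for all probe sets. Among the 32 members given singly here it ranged from -1.24 to 1.84. Scaling the arrays to equal signal of the added poly(A) controls turned every one of the 35 higher on large polysomes. That scaling moved the median of all probe sets to 2.70 and that of the 35 to 2.43, with the same gap of -0.28 between them by construction, since it shifts every probe set of an array alike. Directions below are therefore relative to the other transcripts.

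Small polysomes held the least of many of these transcripts. In small polysomal against non-polysomal RNA 26 of 35 were lower and 4 higher, where 31.6% of all probe sets were lower and 36.7% higher. In large against small polysomal RNA 20 were higher and 4 lower, where 27.8% of all were higher and 27.7% lower. The mean was lowest in small polysomes for 18 of 35 members and highest there for 0. The shares of all probe sets for these means were not computed, so the counts of 18 and 0 are given as a description only. Of the 35, 11 were lower on small polysomes than in non-polysomal RNA and again higher on large than on small polysomes, both called, against 2.71% of all probe sets (342 of 12635). Without replicate number 2 this count was 6, and a further demand for a 1.5-fold difference left 2. With the arrays scaled to the poly(A) controls it was 0. RPS13 AT3G60770, whose protein lies at the body of the subunit, had the steepest such dip. It measured 9.57, 10.19 and 10.35 in large polysomal RNA (lowest, median and highest of 12 arrays), 8.64, 9.06 and 9.39 in small polysomal and 9.28, 9.84 and 10.18 in non-polysomal RNA. Small polysomal lay -0.82 ± 0.09 (SE) from non-polysomal (adjusted p 1.3e-09) and large lay 1.02 ± 0.09 from small (adjusted p 9.06e-11).

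**Figure D1:**
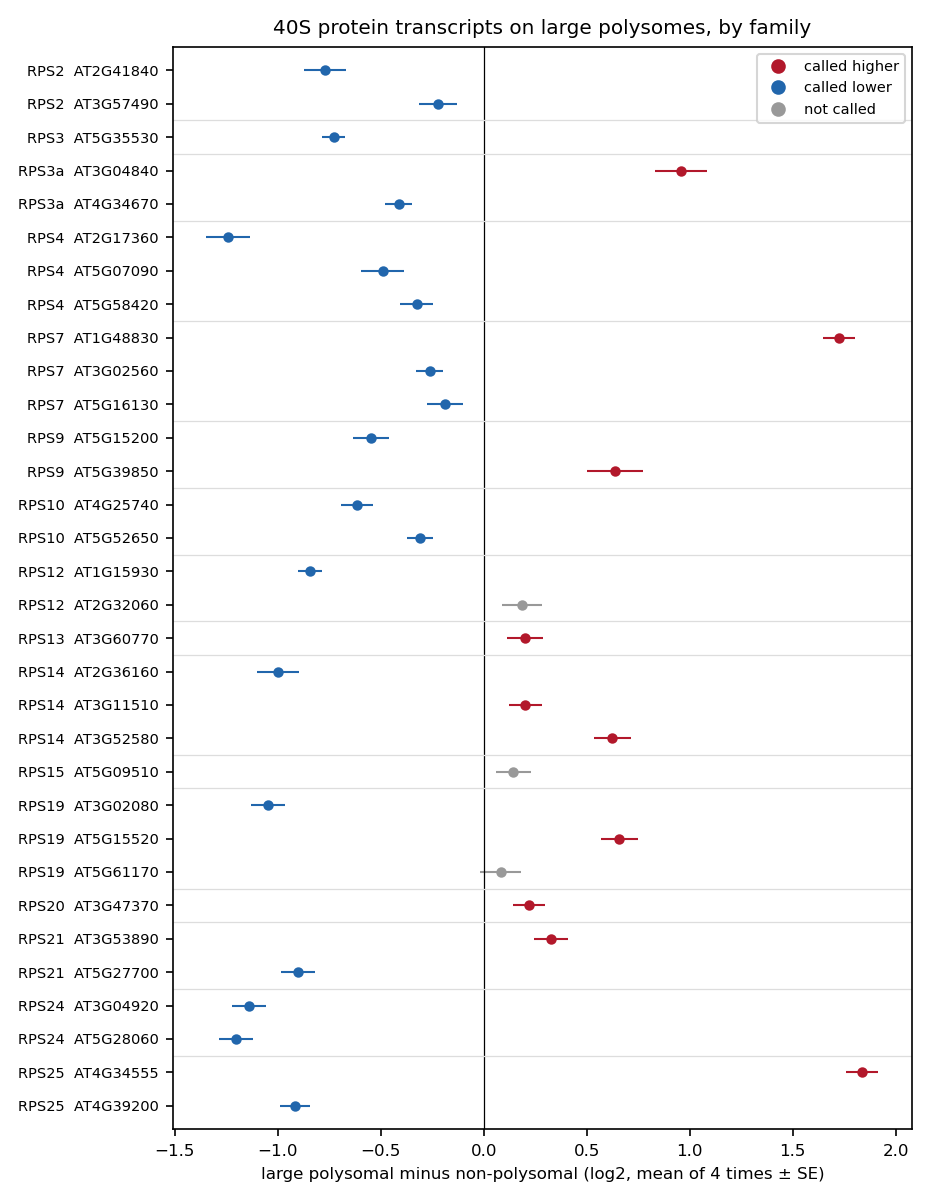
Loading of 32 of the 35 members, in families, as the log2 difference of large polysomal minus non-polysomal RNA with its SE. Red points are called higher (10), blue lower (19) and grey not called (3), all relative to the other transcripts. The points run from -1.24 (RPS4 AT2G17360) to 1.84 (RPS25 AT4G34555). Under poly(A) control scaling every point lies above 0.

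By position on the subunit, known from yeast and human ribosomes, both the head and the body and platform held members on either side among these 32 members. The proteins at the mRNA entrance (RPS2, RPS3 and RPS9) had 5 measured members. Leaving out RPS9 AT5G39850, 4 of 4 were lower, with a median loading of -0.64, where 37.8% of all probe sets were lower and 42.3% higher. The probe set shared by the RPS3 genes AT3G53870 and AT2G31610, outside these members, was called higher instead (0.37 ± 0.13, limma, adjusted p 0.0114). The head (RPS10, RPS12, RPS15, RPS19, RPS20 and RPS25) had 11 members, 3 higher, 5 lower and 3 not called, with a median of 0.08. The body and platform (RPS3a, RPS4, RPS7, RPS13, RPS14, RPS21 and RPS24) had 16, 6 higher and 10 lower, with a median of -0.29. These classes were drawn up with the results known and carry no test.

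Several families held members that were strongly loaded on large polysomes. RPS25 AT4G34555, a head protein near the exit site for tRNA, measured 10.98, 11.33 and 11.77 on large polysomes (lowest, median and highest of 12), against 9.08, 9.40 and 9.91 in non-polysomal RNA. The 2 fractions did not overlap, and loading was 1.84 ± 0.08 (3.57-fold, adjusted p 7.97e-19). RPS7 AT1G48830 measured 12.17, 12.44 and 12.75 on large polysomes, against 10.35, 10.68 and 11.13 in non-polysomal RNA. It was 3.31-fold higher on large polysomes (1.73 ± 0.08, adjusted p 2.22e-18), with no overlap, and its small polysomal range of 11.08 to 12.05 lay almost wholly between the other two.

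The next 3 showed overlapping fractions. RPS3a AT3G04840 measured 9.53, 10.16 and 10.73 on large polysomes, against 8.37, 9.28 and 10.13 in non-polysomal RNA. Its loading was 0.96 ± 0.12 (1.94-fold, adjusted p 4.09e-08), from 1.59 at 12pm to 0.17 at 12am. RPS19 AT5G15520, a copy of a head protein needed in yeast and humans to mature the subunit, measured 7.34, 7.81 and 8.12 on large polysomes, against 6.71, 7.22 and 7.63 in non-polysomal RNA. It was 1.58-fold higher on large polysomes (0.66 ± 0.09, adjusted p 6.91e-08). RPS9 AT5G39850 lay near the floor of the array, at 3.38, 4.18 and 5.79 on large polysomes and 3.38, 3.80 and 4.50 in non-polysomal RNA. It reached 5 only on the 3 large polysomal arrays of 6am, so its loading of 0.64 ± 0.13 is compressed, rests on that time and is given with no test.

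The members furthest below the non-polysomal fraction were RPS4, RPS24, RPS19, RPS14 and RPS25 genes. RPS4 AT2G17360, a body protein, measured 9.18, 9.59 and 9.98 on large polysomes, against 10.15, 10.92 and 11.22 in non-polysomal RNA. The ranges did not overlap, and it was 2.36-fold lower (loading -1.24 ± 0.11, adjusted p 6.84e-12). RPS24 AT5G28060 measured 10.51, 10.63 and 11.25 on large polysomes, against 11.63, 11.87 and 12.47 in non-polysomal RNA (loading -1.20 ± 0.08, adjusted p 5.24e-14). Its paralog AT3G04920 measured 11.30, 11.72 and 12.07 on large polysomes, against 12.37, 12.84 and 13.29 in non-polysomal RNA (loading -1.14 ± 0.08, adjusted p 1.1e-13). Neither RPS24 gene had overlapping ranges, so both copies of this body protein were low on every large polysomal array.

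RPS19 AT3G02080 measured 10.78, 11.03 and 12.25 on large polysomes, against 12.03, 12.28 and 12.77 in non-polysomal RNA. The overlap came from the large polysomal arrays of 6am alone, and loading was -1.05 ± 0.08 (2.06-fold lower, adjusted p 1.16e-12). RPS14 AT2G36160, a platform protein by the mRNA exit, measured 11.26, 11.70 and 12.28 on large polysomes, against 12.20, 12.72 and 13.44 in non-polysomal RNA. It was 2-fold lower (SE 0.10 on the log2 scale, adjusted p 2.36e-10). RPS25 AT4G39200 measured 13.18, 13.51 and 14.24 on large polysomes, against 14.18, 14.59 and 14.73 in non-polysomal RNA. It was 1.89-fold lower (-0.91 ± 0.07, adjusted p 1.11e-12), near the upper end of the array's range of 15.55, where differences are compressed.

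Paralogs of 1 protein stood on both sides of the fractions. Leaving out RPS9 AT5G39850, 6 of the 11 families with more than 1 measured member had a pair called in opposite directions, and among their 19 pairs 8 were called oppositely and 8 the same way. Over all pairs of probe sets on the array 32% were called oppositely and 32.2% the same way, and nothing particular to paralogs is read from these counts. Each pair was compared within the 12 extracts, as the difference between the members' loadings, with an exact two-sided sign-flip permutation test. Of the 19 pairs, 17 had an unadjusted p below 0.05, and 12 had 1 sign in every extract, at the smallest p this test can give (0.000488). Over all pairs of probe sets 49.7% had 1 sign in every extract. The share of all pairs with a p below 0.05 was not computed, so nothing particular to paralogs is read from the 17 of 19 either. A probe set's own response to signal enters each loading, and the part of it in these differences was not tested.

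The widest pair was RPS25, where AT4G34555 loaded above AT4G39200 by 2.75 ± 0.45 (SD, n = 12 extracts, 6.73-fold, exact p 0.000488). The smallest of the 12 differences was 1.88 and the largest 3.20. In RPS7, AT1G48830 loaded above AT3G02560 by 1.99 ± 0.32 and above AT5G16130 by 1.92 ± 0.61, both with 12 of 12 extracts of 1 sign. In RPS19, AT5G15520 loaded above AT3G02080 by 1.70 ± 0.38 and in RPS14, AT3G52580 loaded above AT2G36160 by 1.62 ± 0.52, again in 12 of 12 extracts. RPS14 AT3G52580 measured 11.98, 12.17 and 12.31 on large polysomes, against 10.89, 11.47 and 11.91 in non-polysomal RNA, with no overlap (loading 0.62 ± 0.09, adjusted p 2.23e-07). The third RPS14 gene, AT3G11510, stood between the other two, with a loading of 0.20 ± 0.08 (adjusted p 0.0224), and its call was lost without 1 array (6am non-polysomal replicate 3, adjusted p 0.0586).

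The other oppositely called pairs were RPS3a, RPS21 and a second RPS14 pair, in which AT3G11510, with the call lost without 1 array, loaded above AT2G36160 by 1.20 ± 0.47. RPS21 AT3G53890 measured 13.50, 13.87 and 14.21 on large polysomes, against 12.94, 13.55 and 13.84 in non-polysomal RNA, while AT5G27700 measured 12.18, 12.54 and 13.31 on large polysomes, against 13.25, 13.49 and 13.96 in non-polysomal RNA. The pair differed by 1.23 ± 0.35. RPS3a AT3G04840 loaded above AT4G34670 by 1.37 ± 0.64, in 12 of 12 extracts. RPS12 AT2G32060 and AT1G15930 differed by 1.03 ± 0.56, but AT2G32060 was not called (0.18 ± 0.10, adjusted p 0.0834). With the extract as a random replicate block AT2G32060 was called higher (limma, adjusted p 0.0419), which makes this pair oppositely called too. With the extract as a fixed block it was not called. AT1G15930, a copy of the same beak protein, was 1.8-fold lower on large polysomes (-0.84 ± 0.06, adjusted p 2.88e-14) without overlap of the fractions.

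At the narrow end, the RPS24 pair differed by 0.06 ± 0.25 (7 of 12 extracts of that sign, exact p 0.408). RPS7 AT5G16130 and AT3G02560 differed by 0.07 ± 0.86 (exact p 0.768), with single extracts from -0.85 to 1.38. RPS4 AT5G58420 and AT5G07090 differed by 0.17 ± 0.23 (10 of 12 extracts, exact p 0.0269). The third RPS4 gene, AT2G17360, loaded below AT5G58420 by 0.91 ± 0.34 in 12 of 12 extracts. The calls made by a small margin changed with the arrays used. The call of RPS7 AT5G16130 (-0.19 ± 0.09, adjusted p 0.0456) was lost when any 1 of 18 single arrays was left out, that of RPS13 AT3G60770 (0.20 ± 0.09) for any 1 of 8 and that of RPS2 AT3G57490 (-0.22 ± 0.09) for any 1 of 6.

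**Figure D2:**
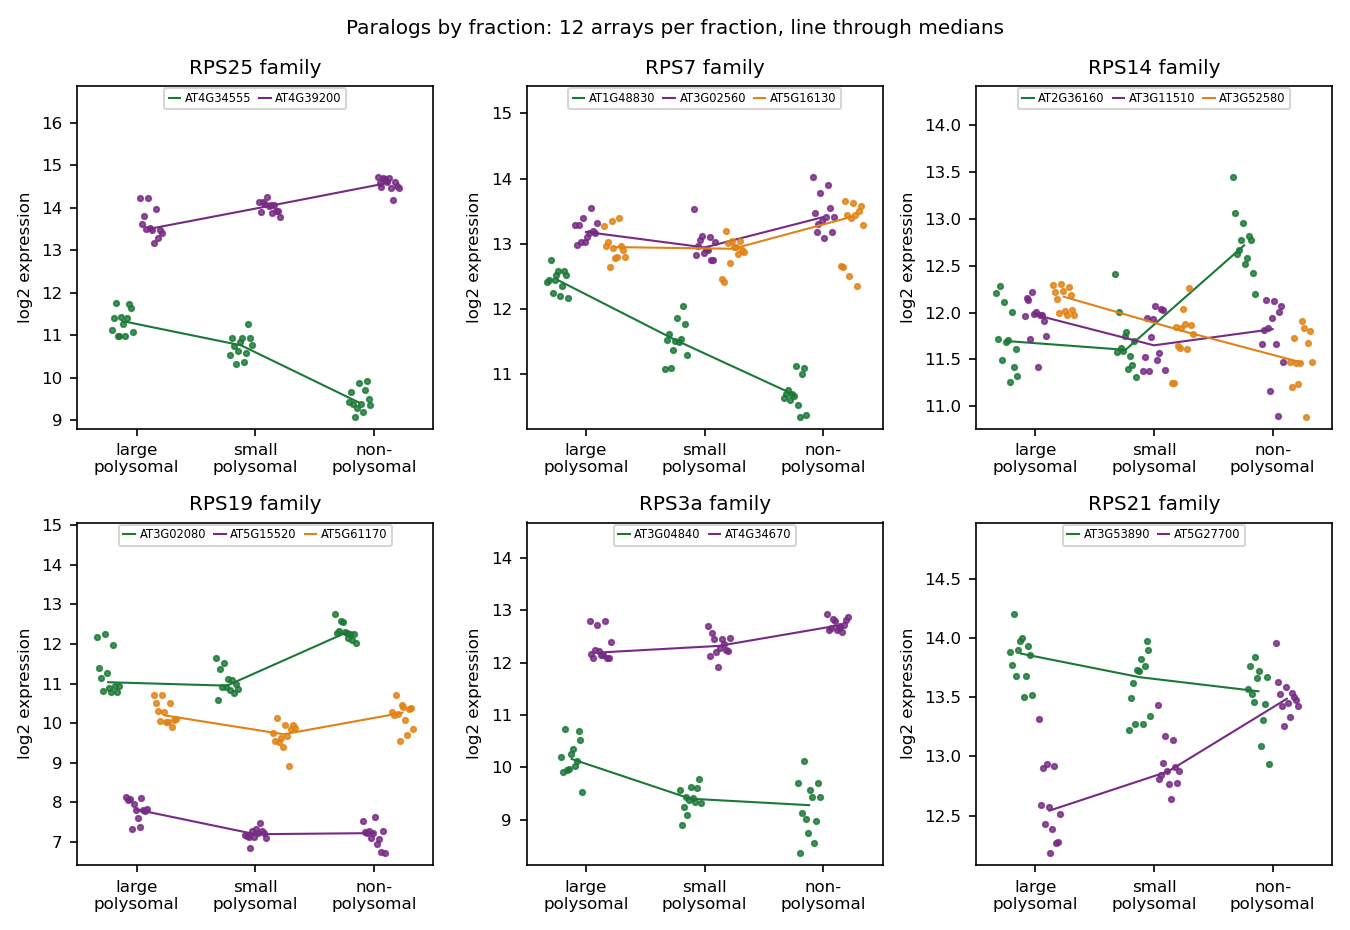
Log2 expression of the paralogs of 6 families on all arrays, 12 per fraction, with large polysomal RNA left, small polysomal in the middle and non-polysomal right. Lines join the medians, which slope down to the right for RPS25 AT4G34555 and RPS7 AT1G48830 and up for RPS25 AT4G39200, relative to the other transcripts. For RPS14 AT2G36160 the line dips slightly at small polysomal RNA and then rises to its highest median in non-polysomal RNA. Levels of different genes are not comparable between probe sets, and poly(A) control scaling turns the rising lines.

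The remaining members add to the count within their families. At the mRNA entrance, RPS3 AT5G35530 was 1.66-fold lower on large polysomes (-0.73 ± 0.06, adjusted p 7.67e-13) and RPS2 AT2G41840 1.71-fold lower (-0.77 ± 0.10, adjusted p 6.31e-08). RPS3 AT5G35530 lay at 11.69 to 12.50 on large polysomes, below every non-polysomal array at 12.53 to 13.01. RPS9 AT5G15200 was lower by a loading of -0.55 ± 0.09. Both RPS10 genes of the head were lower (AT4G25740 at -0.62 ± 0.08 and AT5G52650 at -0.31 ± 0.06), and the single RPS20 gene AT3G47370 was higher (0.22 ± 0.08, adjusted p 0.0101). RPS15 AT5G09510 was not called (0.14 ± 0.08).

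Over the day, the balance of calls moved towards large polysomes at 6am. At 6am 14 members were higher and 11 lower on large polysomes than in non-polysomal RNA (31.4% and 25.6% of all probe sets). At 12pm 7 were higher and 17 lower (32.8% and 29.1%), at 6pm 6 and 15 (32% and 29.2%), and at 12am 5 and 19 (31% and 28.9%). The median loading was -0.01 at 6am, -0.35 at 12pm, -0.32 at 6pm and -0.48 at 12am, while that of all probe sets lay between 0.03 and 0.07. By extract, the members' median loading was -0.14, 0.06 and 0.19 at 6am. It was -0.26, -0.40 and -0.38 at 12pm, -0.23, -0.41 and -0.38 at 6pm, and -0.55, -0.35 and -0.46 at 12am. All 3 of the 6am extracts lay above the other 9. With cyclic loess between arrays 6am stood less apart. The members' median loading was then -0.17 at 6am, -0.28 at 12pm, -0.22 at 6pm and -0.36 at 12am.

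**Figure D3:**
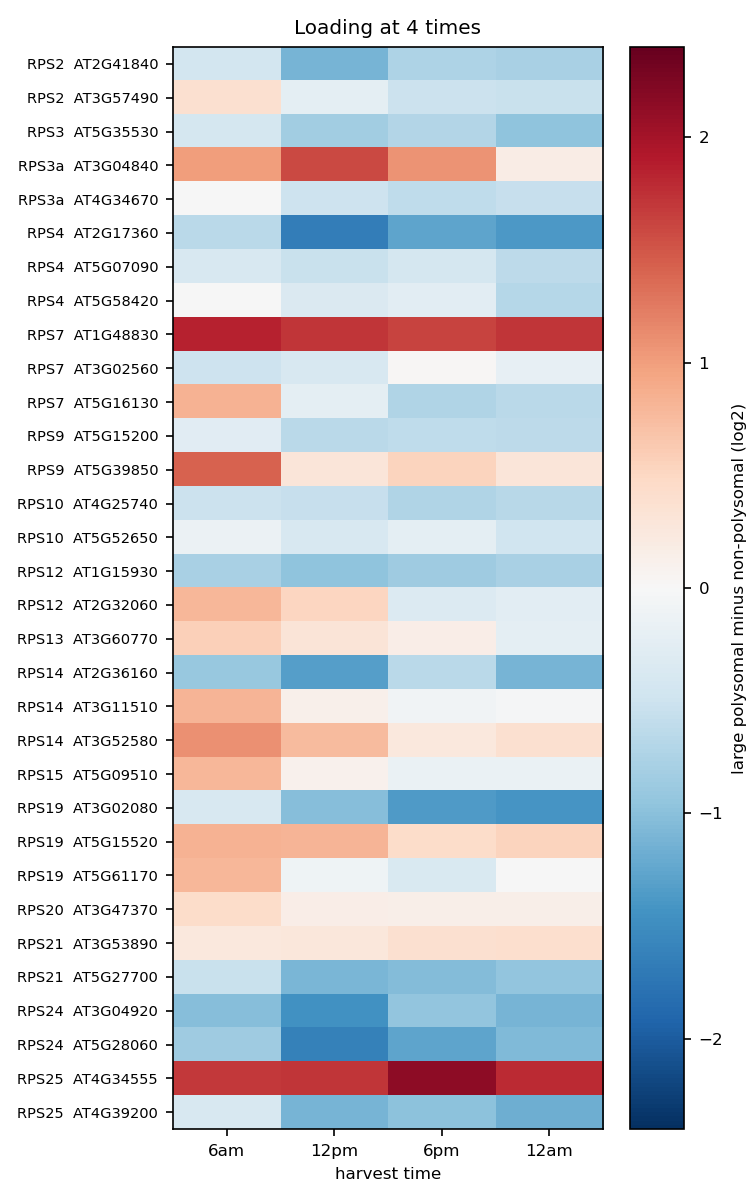
Loading of 32 of the 35 members at the 4 harvest times, as the log2 difference of large polysomal minus non-polysomal RNA, red above 0 and blue below, relative to the other transcripts. The 6am column is the least blue, with a median over the 35 of -0.01 against -0.48 at 12am, and the red rows of RPS25 AT4G34555 and RPS7 AT1G48830 hold at all 4 times. With poly(A) control scaling the medians lie above 0 at every time.

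The change in loading itself was called for 9 of 35 members over the 4 times (12.7% of all probe sets). Fractions of 1 extract deviate together, and with the extract as a random replicate block 20 members were called (34.7% of all), or 19 with the extract as a fixed block (35.6% of all). Loading was highest at 6am for 26 of 35, against 32.9% of all probe sets, and lowest at 12am for 14, against 18.2% of all. Without RPS9 AT5G39850 the counts were 25 and 13 of 34. At 6am against 12am, the difference in loading was called for 9 higher and 0 lower (5.19% and 3.31% of all), and with the random replicate block for 17 higher and 0 lower (12% and 10.2% of all). At 12pm against 6am 5 were lower and 0 higher (4.43% and 2.38%), and 14 and 0 with the random block (11.3% and 8.12%). By limma, 0 members were called at 6pm against 12pm and 0 at 12am against 6pm (0% and 0.0554% of all probe sets), with 6 and 2 at an unadjusted p below 0.05. With the random block 1 was higher and 1 lower at 6pm against 12pm (1.72% and 2.06% of all). The lower one was RPS12 AT2G32060, named after its values were seen. The median step in loading was 0.42 for 6am against 12am and -0.34 for 12pm against 6am.

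These counts depended on the arrays used. Without replicate number 2, 0 of 35 were called for loading over the 4 times, without number 3 only 1, and 13 without number 1. Each of these fits leaves out every array of 1 number, at all times and in all fractions. With single arrays left out, 31 of 36 settings kept this count within 1.5 times of that from all arrays, and the others follow. Leaving out the 6am non-polysomal array of replicate 1 gave 17, and leaving out the 6am large polysomal array of replicate 2 gave 4. The count was 5 without the 6am large polysomal array of replicate 1 or the 6am non-polysomal array of replicate 2 or 3. For loading at 6am against 12am, the count was 2 without the 12am non-polysomal array of replicate 1, 3 without the 6am non-polysomal array of replicate 3, 5 without the large polysomal array of replicate 2 of 6am or of 12am and 17 without the 6am non-polysomal array of replicate 1. With cyclic loess between arrays it was 5, and the median difference of the members over that of all probe sets was 0.24, against 0.44 as deposited. Cyclic loess left 0 called at 12pm against 6am, where the deposited values gave 5. The members' median difference over that of all probe sets was -0.12 for that step, against -0.34 as deposited. Poly(A) control scaling left 0 called for loading over the 4 times, while the gap at 6am against 12am stayed at 0.44 by construction. For counts with arrays left out, cyclic loess or poly(A) control scaling, here and below, the shares of all probe sets were not computed. Such counts cannot tell a loss of calls in these members from one over the whole array.

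RPS7 AT5G16130 had the smallest adjusted p for a change in loading (0.00025, and 3.65e-06 with the random replicate block). On large polysomes its 3 replicates measured 13.27, 13.34 and 13.39 at 6am, then 12.96, 12.94 and 12.96 at 12pm, 13.03, 12.78 and 12.91 at 6pm and 12.65, 12.80 and 12.79 at 12am. Its non-polysomal arrays measured 12.66, 12.51 and 12.36 at 6am, 12.64, 13.39 and 13.51 at 12pm, 13.66, 13.62 and 13.58 at 6pm and 13.44, 13.44 and 13.29 at 12am. At 6am every large polysomal array lay above every non-polysomal one, and at 6pm and 12am every one lay below. Loading was 0.83 at 6am, -0.23 at 12pm, -0.71 at 6pm and -0.64 at 12am, so the weak mean of -0.19 hides opposite signs at different times. In this gene both fractions moved, since the step of 6am against 12am was 0.59 ± 0.17 in large polysomal RNA (adjusted p 0.0151) and -0.88 ± 0.17 in non-polysomal RNA (adjusted p 0.000236).

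RPS12 AT2G32060 measured 12.02, 12.03 and 11.86 on large polysomes at 6am and 11.41, 11.25 and 11.25 at 12am. Its non-polysomal arrays measured 11.34, 11.41 and 10.75 at 6am and 11.81, 11.58 and 11.28 at 12am. Its loading was 0.80 at 6am, 0.51 at 12pm, -0.32 at 6pm and -0.26 at 12am (adjusted p for change 0.00868). RPS19 AT3G02080 measured 12.18, 12.25 and 11.98 on large polysomes at 6am, against 10.82, 10.80 and 10.93 at 12am, while its non-polysomal mean was 12.52 ± 0.26 (SD, n = 3) at 6am and 12.26 ± 0.29 at 12am. Its loading was -0.38 at 6am, with -1.03, -1.36 and -1.41 at the later times (adjusted p 0.00932).

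RPS15 AT5G09510, a head protein by the decoding site, measured 11.06, 10.93 and 10.92 on large polysomes at 6am and 10.45, 10.60 and 10.71 at 12am. Its non-polysomal arrays measured 10.72, 9.84 and 9.99 at 6am and 11.01, 10.66 and 10.59 at 12am. Loading was 0.79 at 6am and between -0.16 and 0.10 afterwards (adjusted p 0.0147). RPS14 AT3G11510 averaged 12.05 ± 0.14 on large polysomes at 6am, 12.04 ± 0.10 at 12pm, 12.02 ± 0.11 at 6pm and 11.63 ± 0.19 at 12am. Its non-polysomal means were 11.24 ± 0.39, 11.92 ± 0.10, 12.11 ± 0.03 and 11.66 ± 0.18 at the same times, lowest at 6am, while the large polysomal means were lowest at 12am. Its loading was 0.81 at 6am and between -0.09 and 0.12 at the other times (adjusted p 0.0194). RPS3a AT3G04840, RPS2 AT3G57490, RPS19 AT5G61170 and RPS25 AT4G39200 completed the 9. Of these, RPS3a AT3G04840 peaked at 12pm instead, with 1.59 there and 0.17 at 12am.

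**Figure D4:**
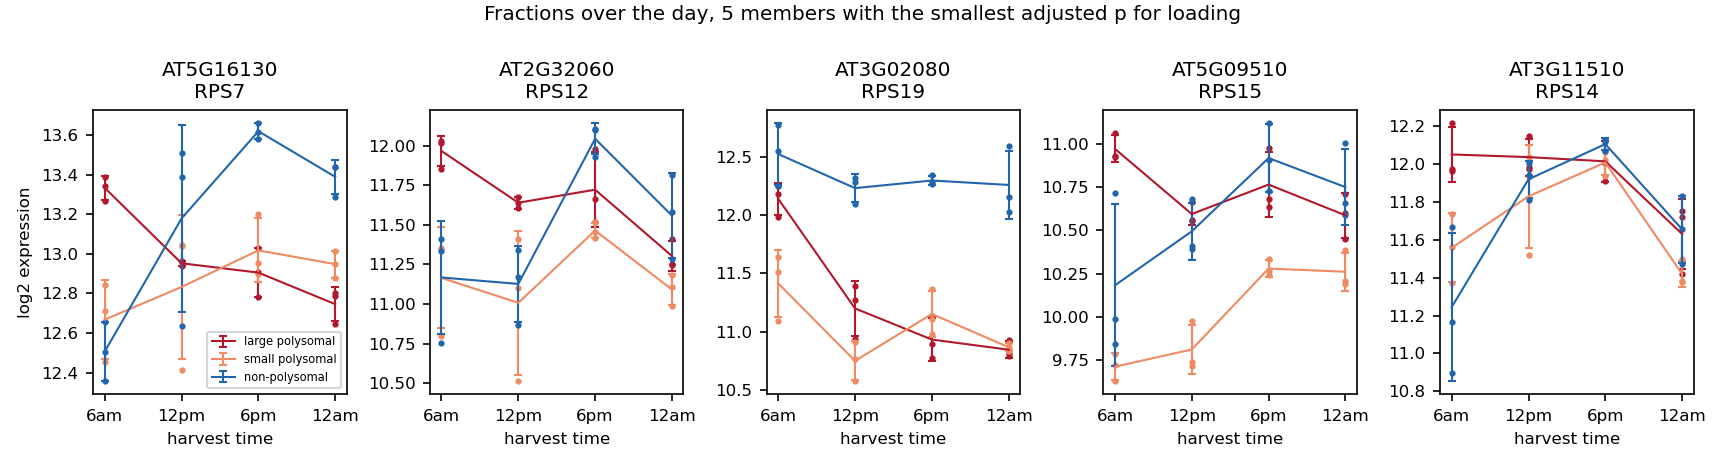
Log2 expression in large polysomal (dark red), small polysomal (orange) and non-polysomal RNA (blue) at the 4 harvest times for the 5 members with the smallest adjusted p for loading over time. Points are single arrays, lines join means and bars are SD of 3 arrays. The red line lies above the blue at 6am in RPS7 AT5G16130, RPS12 AT2G32060, RPS15 AT5G09510 and RPS14 AT3G11510, relative to the other transcripts, and below it throughout in RPS19 AT3G02080, which turns with poly(A) control scaling.

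Within the large polysomal fraction the mean was highest at 6am for 27 of 35 members (26 of 34 without RPS9 AT5G39850) and at 6pm for 8, where 32.1% and 21.9% of all probe sets were. At 6am against 12am 20 were higher and 0 lower (10.6% and 10.5% of all probe sets), with a median difference of 0.50 and 34 of 35 above 0. Over all probe sets the median difference was 0.02, and 6534 of 12635 lay above 0. The count of 20 was 2 without replicate number 2, 11 without number 3 and 12 without the 6am large polysomal array of replicate 2. The count was 13 without the 6am array of replicate 1 or the 12am array of replicate 2 of that fraction, 19 of 34 without RPS9 AT5G39850 and 0 with poly(A) control scaling. At 12pm against 6am 15 were lower (14 of 34 without that member) and 0 higher (24.8% and 23.7%). RPS19 AT3G02080 had differences of 1.29 ± 0.17 for 6am against 12am (adjusted p 1.64e-06) and -0.94 ± 0.17 for 12pm against 6am (adjusted p 2.82e-05). RPS25 AT4G39200 had 0.78 ± 0.15 and -0.66 ± 0.15 (adjusted p 0.000238 and 0.000361).

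The counts in non-polysomal RNA changed with the processing. At 6am against 12am 6 members were higher and 3 lower there (17.4% and 17% of all), and at 12pm against 6am 3 were higher and 1 lower (23.3% and 22.6%). With cyclic loess 16 and 8 were called for these steps in either direction, and with a replicate number left out 2 to 12 and 0 to 10. In small polysomal RNA 12pm against 6am gave 1 higher and 9 lower (23% and 22.5%), and 6am against 12am gave 2 higher and 1 lower (10.1% and 12.7%).

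The level, taken over the 3 fractions, changed over the day for 30 of 35 members (86.6% of all probe sets), and for 22 with the random replicate block (74.2% of all) and 18 without replicate number 2. It was highest at 6pm for 18 members and at 6am for 16, and lowest at 12am for 18. Without RPS9 AT5G39850 these counts were 18, 15 and 17 of 34. For level, the shares of all probe sets highest or lowest at each time were not computed. These counts of highest and lowest times are therefore given as a description only. Steps down were called for 13 and up for 3 at 12pm against 6am (34.1% and 32.6%), and for 12 and 2 with the random replicate block (28.9% and 28.1%). At 6pm against 12pm 12 were up and 0 down (15% and 15.6%), and 4 and 0 with the random replicate block (7.44% and 5.42%). At 12am against 6pm 16 were down and 0 up (30.3% and 28.7%), and 11 and 0 with that block (24.5% and 23%). At 6am against 12am 17 were up and 1 down (25.1% and 23.4%), and 12 and 0 with the block (17% and 17.5%). The differences were small, with median steps of -0.12, 0.12, -0.22 and 0.19 in that order. With poly(A) control scaling 18 members were called for level, with 0 at 12pm against 6am, 0 at 6pm against 12pm and 1 at 6am against 12am.

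RPS19 AT3G02080 had the smallest adjusted p for level (2.55e-07), at 12.02 ± 0.22 (SD, n = 3 extracts) at 6am, 11.39 ± 0.12 at 12pm, 11.46 ± 0.14 at 6pm and 11.32 ± 0.10 at 12am. RPS9 AT5G39850, near the array's floor, had 4.64 ± 0.23, 3.83 ± 0.08, 4.15 ± 0.11 and 3.50 ± 0.06, given with no test because it passed the filter only through arrays of 6am. RPS19 AT3G02080 was highest at 6am. RPS7 AT3G02560 was also highest at 6am, at 13.52 ± 0.09, 13.11 ± 0.05, 13.07 ± 0.07 and 13.18 ± 0.06 (adjusted p 7.05e-06). RPS3 AT5G35530 measured 12.53 ± 0.09, 12.10 ± 0.06, 12.33 ± 0.03 and 12.27 ± 0.02 (adjusted p 1.13e-05). RPS4 AT5G07090 instead was highest at 6pm, at 9.54 ± 0.21, 9.80 ± 0.22, 10.32 ± 0.08 and 9.80 ± 0.30 (adjusted p 1.3e-05). Its loading did not pass the test over time (adjusted p 0.905). With the extract as a random replicate block, limma's adjusted p for level was larger in each gene tested here. It was 2.77e-05 for RPS19 AT3G02080, 0.00114 for RPS7 AT3G02560, 0.00136 for RPS3 AT5G35530 and 0.0004 for RPS4 AT5G07090.

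**Figure D5:**
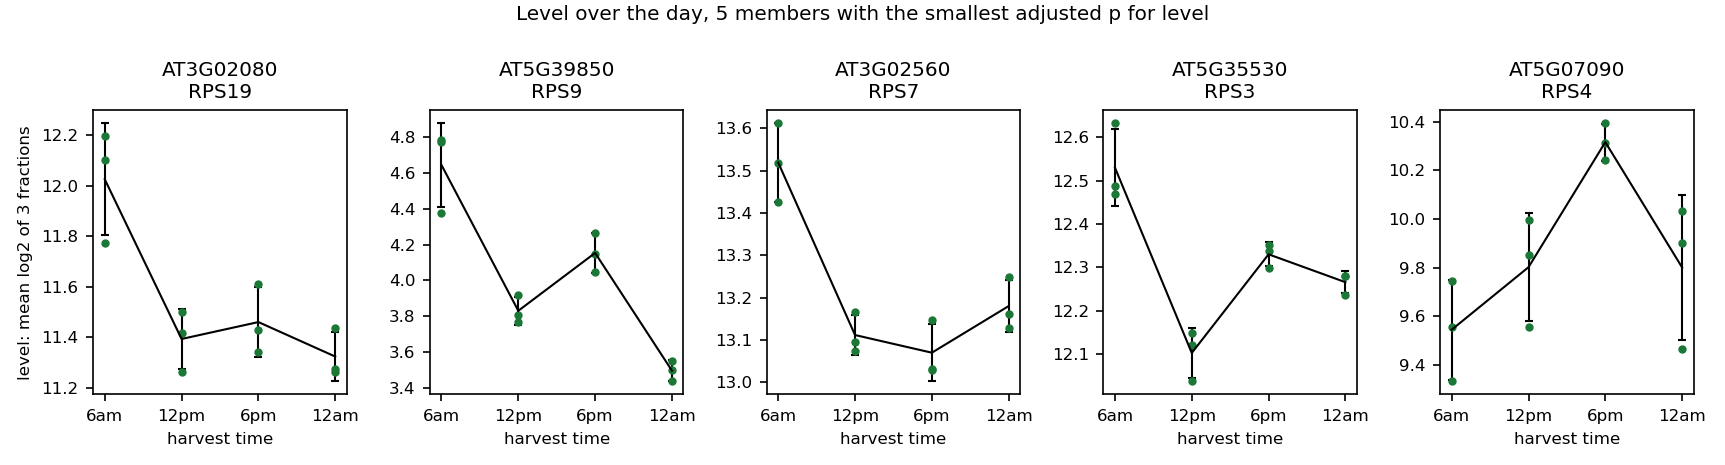
Level of the 5 members with the smallest adjusted p for level over time, as the mean log2 of the 3 fractions of each extract (green points) with the mean and SD of 3 extracts at each harvest time (black). RPS19 AT3G02080, RPS7 AT3G02560 and RPS3 AT5G35530 are highest at 6am and RPS4 AT5G07090 at 6pm, relative to the other transcripts. RPS9 AT5G39850 passed the filter only through arrays of 6am, so its high level there follows from the filter and is not a result.

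The proteins of the 60S subunit were counted in the same way, with no test of a difference from the 40S. Of 73 such members that passed the filter, 19 were higher and 42 lower on large polysomes than in non-polysomal RNA, with a median loading of -0.39, against 42.3% and 37.8% of all probe sets. The change in loading over the 4 times was called for 27 of 73 (12.7% of all), and a higher loading at 6am than at 12am for 24 (5.19% of all), with a median of 0.58. Other genes of translation gave few probe sets. Among the initiation factors that act on the 40S 7 of 25 listed were measured, 5 higher and 2 lower on large polysomes, beside the same 42.3% and 37.8% of all. The highest were both genes of a factor that helps find the start codon, AT5G35680 with a loading of 2.53 ± 0.11 and AT2G04520 with 2.27 ± 0.18. AT1G36730, of the factor that sets off GTP hydrolysis, had 1.82 ± 0.08. Of the 7, 0 were called for loading over time (limma, adjusted p from 0.0524 to 0.724, 1 at an unadjusted p below 0.05). Of the proteins that bind or assemble the 40S, 1 of 13 was measured, AT5G41190, which trims the pre-rRNA, at -0.59 ± 0.18. Among cap-binding and elongation factors EIF4A-2, an RNA helicase, was higher (0.55 ± 0.10) and AT5G19510, an elongation factor subunit, lower (-1.13 ± 0.07) of 3 measured.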

How the data were processed

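Total RNA of 36 fractions was hybridised to 1-colour arrays, and 1 array stood for each sample. The authors deposited log2 values per probe set, made with GCRMA in R 3.1 with affy 1.42.3, per the submitters' processing notes. The values range from 2.15 to 15.55, and no scanner intensities were used. Hybridisation signal limits precision at both ends.

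Of 22810 probe sets 64 controls were left out, and 12635 with a log2 value of at least 5 on at least 3 arrays were kept. limma 3.58.1 in R 4.3.3 fitted 12 group means (24 residual degrees of freedom), with empirical Bayes and Benjamini-Hochberg adjustment over all kept probe sets. Figures used Python 3.11.15 and matplotlib 3.10.9. The scripts were tested on simulated data.

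The members, lists and families were chosen with earlier results of these data known. Named with values are the 6 most positive and 6 most negative called loadings, the 5 smallest adjusted p for loading and for level over time, the 5 widest and 3 narrowest paralog pairs, and 2 members of each other list, save a few loci that are in the counts over the 35 members but are not reported singly here.

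Pairing was taken from the labels' replicate numbers. Fractions of the same time and number deviated together in 36 of 36 pairs (median r 0.42, lowest 0.14), so the extract was also fitted as a replicate block (consensus correlation 0.355), and its counts are given beside those for loading and level over time. Arrays of the same fraction and number at other times had r over 0.1 in 33 of 54 pairs (median 0.15), against 7 of 108 with other numbers (median -0.05). Extracts of the same number may thus not be independent across times. The sign-flip test takes the 12 extracts as independent, and this was not tested. Alternatives covered filters, cyclic loess, scaling each array to equal signal of 12 poly(A) control probe sets, the blocks, the definition of loading and each replicate or array left out.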

Additional observations from a re-analysis of the deposited data

Results flagged for a closer look

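The loading of 9 members, the log2 difference of large polysomal minus non-polysomal RNA, differed between the 4 harvest times by limma's F test over all probe sets. The adjusted p was 0.00025 for RPS7 AT5G16130, 0.00868 for RPS12 AT2G32060, 0.00932 for RPS19 AT3G02080, 0.0147 for RPS15 AT5G09510, 0.0194 for RPS14 AT3G11510, 0.0197 for RPS19 AT5G61170, 0.0233 for RPS25 AT4G39200, 0.0366 for RPS3a AT3G04840 and 0.0379 for RPS2 AT3G57490. In 8 of the 9 loading was highest at 6am. RPS19 AT5G61170 had 0.80 at 6am and -0.37 at 6pm, RPS25 AT4G39200 had -0.38 at 6am and -1.18 at 12am, and RPS2 AT3G57490 had 0.39 at 6am and -0.53 at 12am. The call of RPS2 AT3G57490 was lost when any 1 of 9 single arrays was left out (highest adjusted p 0.132), that of RPS3a AT3G04840 for any 1 of 8 (0.116) and that of RPS19 AT5G61170 for any 1 of 4 (0.0732). Those of RPS14 AT3G11510 and RPS25 AT4G39200 were each lost for any 1 of 3 arrays (0.0977 and 0.112), and that of RPS15 AT5G09510 for either of 2 (0.0616).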

How the results depend on the processing

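Of 35 members, the counts called with each replicate number left out in turn were 8 to 12 for higher on large polysomes than in non-polysomal RNA, 17 to 20 for lower there, 3 to 6 for higher on small polysomes than in non-polysomal RNA, 24 to 25 for lower there, 14 to 17 for higher on large than on small polysomes, 3 to 4 for lower there, 6 to 10 for lowest on small polysomes by both calls. They were 18 to 29 for level over time, 14 to 18 for level at 12pm against 6am, 1 to 7 for level at 6pm against 12pm, 9 to 16 for level at 12am against 6pm, 10 to 16 for level at 6am against 12am, 0 to 13 for loading over time, 0 to 12 for loading at 12pm against 6am, 0 throughout for loading at 6pm against 12pm, 0 throughout for loading at 12am against 6pm, 0 to 12 for loading at 6am against 12am, and 8 to 15 for large polysomal RNA at 12pm against 6am, 2 to 17 for large polysomal RNA at 6am against 12am, 0 to 10 for non-polysomal RNA at 12pm against 6am, 2 to 12 for non-polysomal RNA at 6am against 12am. With each of the 36 arrays left out they were 10 to 12 for higher on large polysomes than in non-polysomal RNA, 18 to 20 for lower there, 3 to 4 for higher on small polysomes than in non-polysomal RNA, 26 throughout for lower there, 20 throughout for higher on large than on small polysomes, 4 to 5 for lower there, 11 throughout for lowest on small polysomes by both calls. They were 29 to 32 for level over time, 14 to 19 for level at 12pm against 6am, 6 to 12 for level at 6pm against 12pm, 14 to 17 for level at 12am against 6pm, 15 to 18 for level at 6am against 12am, 4 to 17 for loading over time, 1 to 13 for loading at 12pm against 6am, 0 throughout for loading at 6pm against 12pm, 0 throughout for loading at 12am against 6pm, 2 to 17 for loading at 6am against 12am, and 11 to 16 for large polysomal RNA at 12pm against 6am, 12 to 22 for large polysomal RNA at 6am against 12am, 3 to 7 for non-polysomal RNA at 12pm against 6am, 5 to 11 for non-polysomal RNA at 6am against 12am. Counts of calls between 6pm and 12pm in level were 6 without any of the 3 arrays of 12pm replicate 1 and 7 without the 6pm non-polysomal array of replicate 3. Counts for loading at 12pm against 6am were 13 without the 6am non-polysomal array of replicate 1, and 3 or fewer without any of 11 other single arrays, among them all 3 large polysomal arrays of 12pm. In non-polysomal RNA, 12pm against 6am gave 7 without the 6am array of replicate 1, and 6am against 12am gave 5 without the 12am array of replicate 2 or 3.

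Scaling to equal poly(A) control signal gave 35 higher and 0 lower on large polysomes than in non-polysomal RNA, 18 and 0 on small polysomes than in non-polysomal RNA, and 35 and 0 on large than on small polysomes. It gave 18 for level over time, 0 for loading over time and 0 for the low on small polysomes. It gave 0, 0 and 1 for level at 12pm against 6am, 6pm against 12pm and 6am against 12am, and 0 for loading at 12pm against 6am and at 6am against 12am. In large polysomal RNA both steps gave 0, and non-polysomal RNA gave 2 at 12pm against 6am and 0 at 6am against 12am. The sources used here do not say when the controls were added, and the cause was not tested. Loading turned positive under it in all 20 members called lower, of which 19 are given singly: AT1G15930 1.81, AT2G17360 1.41, AT2G36160 1.65, AT2G41840 1.88, AT3G02080 1.60, AT3G02560 2.39, AT3G04920 1.51, AT3G57490 2.43, AT4G25740 2.03, AT4G34670 2.24, AT4G39200 1.73, AT5G07090 2.16, AT5G15200 2.10, AT5G16130 2.46, AT5G27700 1.75, AT5G28060 1.45, AT5G35530 1.92, AT5G52650 2.34, AT5G58420 2.32. The level at 12pm against 6am turned positive in 4, without a call: AT1G15930 0.0943, AT2G36160 0.0604, AT4G39200 0.0773, AT5G27700 0.0162.

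Cyclic loess gave 0 for loading at 12pm against 6am and 5 at 6am against 12am, and in non-polysomal RNA 8 at 12pm against 6am and 16 at 6am against 12am. The extract as a random replicate block gave 20 for loading over time, 14, 2 and 17 for its steps at 12pm against 6am, 6pm against 12pm and 6am against 12am, and 4 for level at 6pm against 12pm. As a fixed replicate block it gave 19, 13, 1 and 17 for the same loading results. The replicate number as a fixed replicate block gave 14 for loading over time and 8 for its step at 12pm against 6am. Loading as large polysomal minus the mean of the others gave 5 and 1 for those results. Mean polysomal minus non-polysomal RNA gave 3 over time, 1 at 12pm against 6am and 2 at 6am against 12am. Calls that also needed a 1.5-fold difference were 7 higher and 11 lower on large polysomes than in non-polysomal RNA, 12 lower on small polysomes, 7 higher and 0 lower on large than on small, and 2 for the low on small polysomes. They were 6 for level over time, 4, 1, 1 and 2 for its 4 steps from 12pm against 6am onwards, 9 and 10 for the 2 large polysomal steps and 2 and 1 for the 2 non-polysomal steps. The filters and the trended robust fit kept these counts within 1.5 times. Using every probe set of a locus was not run, since 0 loci had more than 1. The results within the large polysomal and non-polysomal fractions and the low on small polysomes, with their alternatives, and the counts without RPS9 AT5G39850 were added after seeing the data.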

Other observations

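Of the 5 probe sets shared between 40S paralogs, which cannot be assigned to 1 locus, 4 gave the following loadings, the log2 difference of large polysomal minus non-polysomal RNA. The RPS3 pair AT3G53870 and AT2G31610 had 0.37 ± 0.13 (SE, limma, adjusted p 0.0114) and was called higher. The RPS16 pair AT5G18380 and AT2G09990 had -0.41 ± 0.09, and the RPS20 pair AT5G62300 and AT3G45030 had -0.32 ± 0.06. The RPS23 pair AT5G02960 and AT3G09680 had -0.08 ± 0.11 (limma, adjusted p 0.53).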
